A study of Mus musculus and Homo sapiens with 12 samples.

Results

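Of the 63164 SIRT7 peaks on 18 autosomes of mouse embryonic fibroblasts (MEFs), 1911, or 3.03% (95% exact binomial interval 2.89 to 3.16), lay in megabases that held few peaks. Chromosomes 1 to 10 and 12 to 19 were divided into bins of 1 Mb from base 0, and each peak was counted in the bin of its midpoint. Bins between the first and last peak of a chromosome numbered 2306, and the 253 with 1 to 10 peaks, 10.97% (9.72 to 12.3) of them, are called sparse here. The fibroblast list held 72622 peaks in all and the series, with its human list, 116941. The number of peaks chose the bins, and widths, scores and spacing come from the same peak calls, so all values below are descriptions and no test was made.

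SIRT7 is a nuclear sirtuin, a deacylase that acts on lysine 18 of histone H3 among other substrates, and the title of the series links it to L1 elements and the nuclear lamina. L1 elements are retrotransposons that copy themselves through RNA. Most copies in the mouse genome are cut short at their 5′ end, so that a full-length copy is the exception. They are concentrated in AT-rich, gene-poor regions, which often lie at the nuclear periphery, and are thin in GC-rich, gene-rich regions. No genome, repeat map or gene annotation of mm9, the mouse build of the list, was used here, so bins and peaks are named by position and none is assigned to a gene or a repeat.

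The peaks came from chromatin immunoprecipitation and sequencing (ChIP-seq) with an antibody to SIRT7 in wild-type MEFs of the strain 129s2, isolated at embryonic day 14.5 and used at passages 2 to 3. The series held 12 samples in 7 groups, with 2 samples of SIRT7 ChIP in wild-type MEFs, but 1 peak list stands for that group, recorded under its replicate 1. Without a replicate list the spread between cultures cannot be given. Brackets after shares and medians are 95% intervals for counting error alone, taking peaks or bins as independent. The read depth behind the list is unknown, the absence of a peak does not show that SIRT7 is absent, and how many embryos gave the cells is not given in the sources used here.

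The sparse bins held between 2 and 10 peaks, with a median of 8, where the median over all bins was 26 and the quartiles were 16 and 38. No bin held exactly 1 peak. Bins of 2 peaks numbered 4, bins of 3 and of 4 peaks 9 each, and bins of 5 peaks 17. Numbers rose to 55 bins at the limit of 10 peaks, just outside which 52 bins had 11, so the limit cut through a continuous distribution. Another 11 bins held no peak and do not count as sparse. Peaks covered 1.19% of the sparse bins and 5.60% of the other occupied bins.

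Sparse megabases were found on all 18 chromosomes, but unevenly. Chromosome 4 had the highest share, 29 of 153 bins or 18.95% (13.1 to 26.1), and chromosome 3 the lowest, 5 of 157 bins or 3.18% (1.04 to 7.27). Chromosome 1, with the most bins, had 8 of 195, or 4.10% (1.79 to 7.92). Chromosome 5 had 25 of 150, chromosome 2 had 28 of 179, and chromosome 8 had 20 of 129. Chromosomes 4, 2, 5 and 8 together held 102 sparse bins, 40.3% of them, on 26.5% of all bins. The remaining chromosomes ranged from 7 sparse bins on chromosome 16 to 19 on chromosome 9.

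Sparse bins also lay more often toward the far end of the chromosomes. Mouse autosomes carry the centromere at the end where numbering starts, so high positions are far from it. When each span from first to last peak was cut into 5 equal parts, sparse bins made up 6.06% (4.06 to 8.64) of the bins in part 1, next to the centromere, and 20.3% (16.8 to 24.3) in part 5. Parts 2, 3 and 4 had 9.54%, 7.83% and 11.1%. Chromosomes 4 and 5 supplied much of this, and without them part 5 had 14.96% and part 1 had 6.73%. The median over all bins of the 18 chromosomes was 33 peaks in part 1 and 18 in part 5. Peak number as a whole was thus lower in part 5. With 3 equal parts, 13 chromosomes had more sparse bins in the last than in the first part, 4 had fewer and 1 had equal numbers. On chromosome 4 the last part held 25 of 29 sparse bins and on chromosome 5 it held 20 of 25. Chromosome 14 ran the other way, with 8 sparse bins in the first part and 0 of 12 in the last. Of the first bins of the 18 chromosomes 1 was sparse and of the last bins, which may be incomplete, 4 were. These 5 are a small part of the 253 sparse bins.

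**Figure D1:**
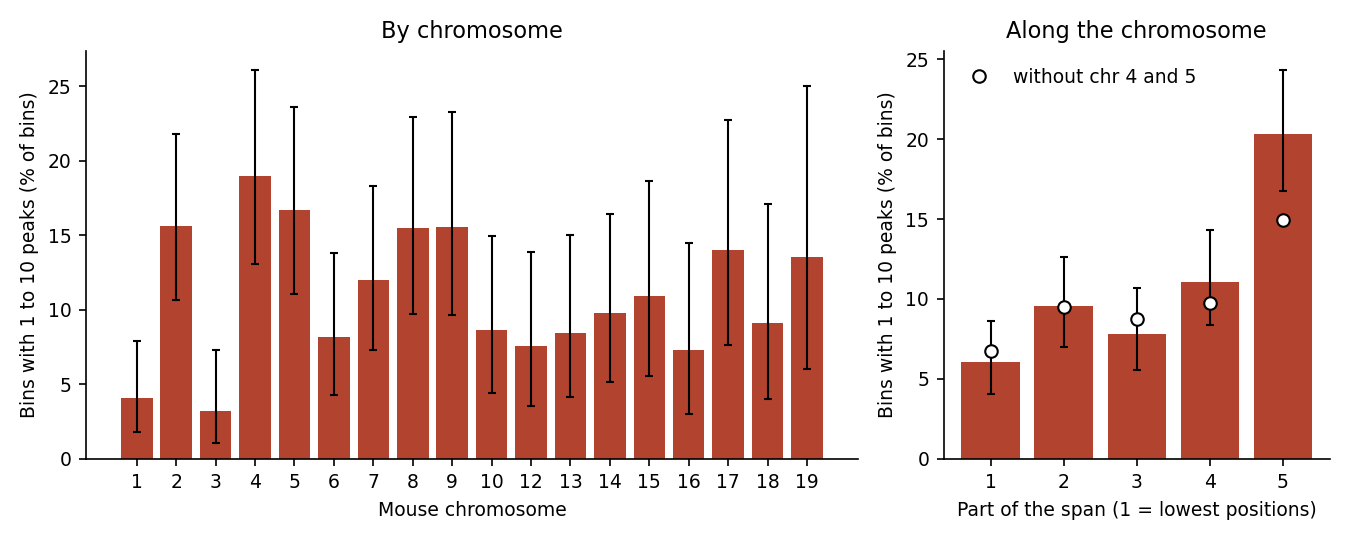
Share of 1 Mb bins with 1 to 10 SIRT7 peaks, by chromosome (left) and in 5 equal parts of the span from first to last peak, pooled over 18 chromosomes (right). Bars are shares in percent, whiskers 95% exact binomial intervals, and open circles leave out chromosomes 4 and 5. Chromosomes 1 and 3 are lowest, and part 5 stands at 20.3% against 6.06% in part 1.

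The sparse bins adjoined one another. Of the 253, 139 or 54.9% (48.6 to 61.2) had another sparse bin directly beside them, and 114 stood alone. Of the 426 bins beside a sparse bin, 32.6% (28.2 to 37.3) were sparse themselves. Of the 1880 bins with no sparse neighbour, 6.06% (5.03 to 7.24) were sparse. Together the bins formed 163 separate stretches, counting single bins. Stretches of 2 Mb numbered 29 and of 3 Mb 12, and 8 were 4 Mb or longer. These 8 lay on 6 chromosomes and took in 45 bins.

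The longest stretch ran over 13 Mb of chromosome 4, chr4:127000001-140000000, with 78 peaks or 6 per bin. Its bins held 9, 5, 6, 7, 8, 7, 7, 8, 2, 7, 5, 4 and 3 peaks in order of position. It was bounded by bins of 16 and 11 peaks. It belonged to a longer poor region, since 23 of the 31 bins from 124 to 155 Mb were sparse. The median bin there held 7 peaks, against 32.5 in the other 122 bins of the chromosome, of which 6 were sparse. This window, and the one on chromosome 5 below, join stretches with at most 5 other bins between them, a rule set after the values were seen. In the 13 Mb the median peak was 670 bp wide, peaks covered 0.766% of the length, and 3 peaks fell in the width range of 5.25 to 6.25 kb.

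The next stretch covered 7 Mb of chr2:29000001-36000000, with 52 peaks. It passed on its far side directly into a bin of 48 peaks, whereas the bin before it held 11. Chromosome 17 had a stretch of 5 Mb (chr17:25000001-30000000) with 36 peaks, between bins of 13 and 12 peaks. Of 5 stretches of 4 Mb, those with 27 peaks each were chr5:122000001-126000000, chr8:120000001-124000000 and chr9:40000001-44000000. The stretch on chromosome 9 began beside a bin of 46 peaks, and those on chromosomes 5 and 8 had flanking bins of 12 to 22 peaks. On chromosome 5, 20 of the 33 bins from 111 to 144 Mb were sparse, with a median of 9 peaks per bin against 29 elsewhere on the chromosome.

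Most borders were gradual. Bins flanking a stretch held a median of 17 peaks, with quartiles of 13 and 23, over the 316 flanks of stretches that had a bin on both sides. Of these flanks 64.6% (59.0 to 69.8) held 11 to 20 peaks and 19 held more than 40. A flank cannot itself be sparse. Of all 2042 other occupied bins, 569 held 11 to 20 peaks and 461 more than 40. Counting every bin, other sparse ones included, at a distance of 1 Mb from a sparse bin the median bin had 13 peaks, at 2 Mb it had 15, at 5 Mb 18 and at 10 Mb 23. Starting from other occupied bins the medians were 28, 28, 27 and 27. Of the bins counted from sparse bins, 35.9% at 1 Mb and 25.8% at 5 Mb were sparse themselves. Counting only occupied bins that were not sparse, the medians were 17 at 1 Mb, 20 at 2 Mb, 25 at 5 Mb and 27 at 10 Mb from a sparse bin. Measured in the same way from other occupied bins they were 30, 30, 29 and 29.

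**Figure D2:**
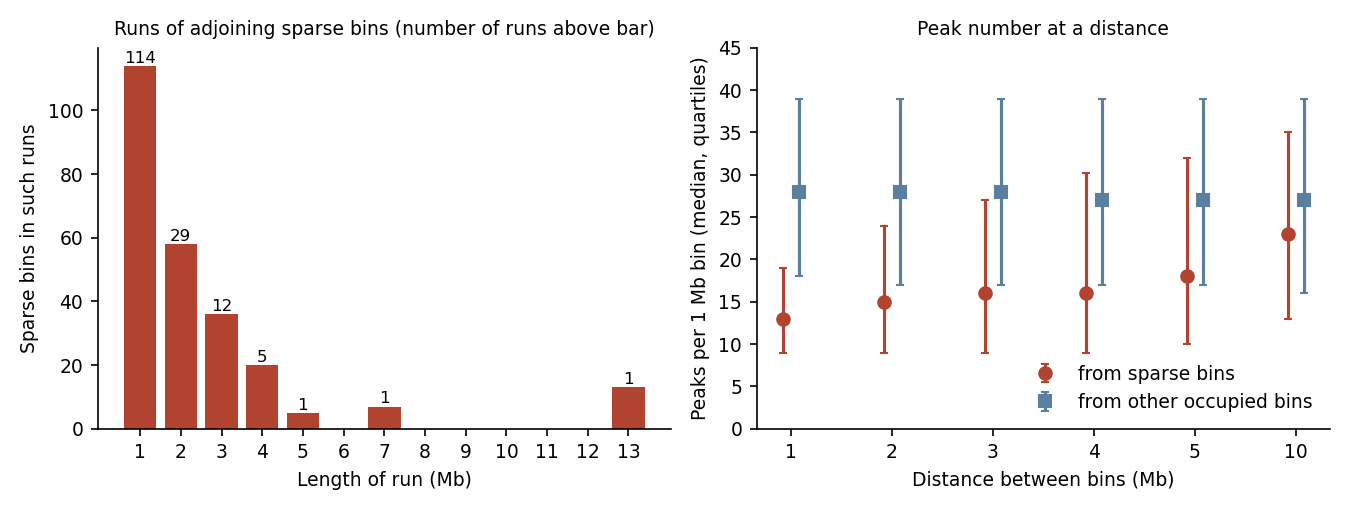
Left, number of sparse bins by the length in Mb of the stretch of adjoining sparse bins they belong to, with the number of stretches above each bar. Right, median peaks per 1 Mb bin (whiskers, quartiles) at a distance in Mb from sparse bins and from other occupied bins, with sparse bins counted; the first rises from 13 at 1 Mb to 23 at 10 Mb, the second stays at 27 to 28.

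Peaks in sparse bins were narrower. Their median width was 780 bp (758 to 794), with quartiles of 583 and 1623 bp, whereas the other bins had 991 bp (983 to 1000), with quartiles of 663 and 2169 bp. The member median was the lower on all 18 chromosomes. Medians by the number of peaks in the bin were 873 bp for 11 to 20 peaks, 985 for 21 to 30, 1003 for 31 to 40 and 1043 for over 40. Within the sparse bins the order was the same, with 694 bp in bins of 2 to 5 peaks, 770 in bins of 6 to 8 and 794 in bins of 9 or 10. Bins of exactly 10 peaks, just inside the limit, had 813.5 bp (783 to 861), and bins of exactly 11 had 791 bp (755 to 829).

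Peaks of 5.25 to 6.25 kb, the range in which this list has a separate group of widths, were the most depleted width class. They made up 93 of the 1911 members, 4.87% (3.95 to 5.93), against 6511 or 10.6% (10.4 to 10.9) of the peaks in the other bins. The share among members was lower on all 18 chromosomes, but several rest on few such members, as chromosome 17 with 1 and chromosome 1 with 2. On chromosome 8 the shares were close, 9.59% against 10.9%. Per megabase there were 0.368 such peaks in sparse bins and 3.19 in the other bins, a difference of 8.67-fold, where all peaks differed by 3.97-fold because of the choice of bins. No such peak was found in 176 of the 253 sparse bins, 69.6% (63.5 to 75.2), a number that depends on how few peaks of any width such a bin holds and is therefore not set beside that of the other bins. Of the rest, 65 sparse bins held 1, 8 held 2 and 4 held 3. The bins with 3 were at 62 and 104 Mb of chromosome 4, 53 Mb of chromosome 6 and 40 Mb of chromosome 9, and were singled out after their values were seen. Members of lone bins, of stretches of 2 or 3 Mb and of stretches of 4 Mb or more had shares of 4.80%, 5.08% and 4.55%, within one another's intervals.

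The widest peaks did not follow that pattern. Members of 6.25 kb or wider numbered 85, or 4.45% (3.57 to 5.47), against 1207 or 1.97% (1.86 to 2.08) of the peaks in the other bins, so this class had more than its usual share among members. Per megabase they still numbered fewer, 0.336 against 0.591, but the difference was 1.76-fold, the smallest of the 6 width classes. Among peaks of 5.25 kb or wider, those of at least 6.25 kb made up 47.8% (40.2 to 55.4) of 178 members and 15.6% (14.8 to 16.5) of 7718 other peaks. The share of peaks of 6.25 kb or wider was graded by the number of peaks in the bin. It was 2.70% for 11 to 20 peaks, 2.41% for 21 to 30, 1.77% for 31 to 40 and 1.57% for over 40.

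Within these classes the difference varied from step to step of 250 bp. Peaks of 5.25 to 5.5 kb were 3.41-fold less dense in sparse bins, below the 3.97-fold of all peaks, with 12 members. Peaks of 5.75 to 6 kb were 11.99-fold less dense in sparse bins, with 31 members against 3000 other peaks. Peaks of 6 to 6.25 kb were 8.61-fold less dense, and those of 6.25 to 6.5 kb 3.42-fold, with 12 members against 331. Peaks of 6.5 to 6.75 kb also had 31 members, against 305 other peaks, and were 1.22-fold less dense. Peaks of 7 to 7.25 kb, with 21 members and 217 others, were 1.28-fold less dense. Among members the width histogram had separate rises at 6.5 to 6.75 kb and 7 to 7.25 kb, on few peaks. The step from 6.75 to 7 kb between them had 10 members, and the difference there was 1.93-fold. The other bins also had a rise at 7 to 7.25 kb, with 156 peaks in the step before it and 124 in the step after. These steps were chosen after the widths were seen.

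The wide members were scattered. They lay in 71 sparse bins, of which 59 held 1, 10 held 2 and 2 held 3. They occurred on 17 of the 18 chromosomes, with the highest number, 11, on chromosome 2, which had the most members, and the highest share, 8.25%, on chromosome 6. Chromosome 3 had 0 among its 37 members, which allows a share of up to 8.11% (3 counts of 37). Their share was above that in the other bins on 16 chromosomes, the exceptions being chromosomes 3 and 10. On chromosomes 6, 15 and 18 they were denser per megabase in sparse bins than in the others, as on chromosome 6 with 0.667 against 0.533, a value that rests on 8 members. A neighbour within 10 kb was present for 15.3% (8.40 to 24.7) of the wide members, and the median distance to the nearest peak was 48.4 kb. For all members these values were 25.1% and 36.1 kb, and for wide peaks of the other bins 45.4% and 11.5 kb. The distances follow in part from the choice of bins.

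The narrow end gained share. Peaks under 500 bp were 12.8% (11.3 to 14.3) of members and 8.09% (7.87 to 8.31) of other peaks, and peaks of 500 to 1000 bp were 51.4% (49.1 to 53.7) and 42.3% (41.9 to 42.7). They were 2.52-fold and 3.27-fold less dense per megabase in sparse bins. Peaks of 1 to 2 kb lost share, from 22.4% to 15.1% (13.5 to 16.8), and were 5.91-fold less dense. Peaks of 2 to 5.25 kb were 5.06-fold less dense. In 51 of the sparse bins, 20.2%, no peak was wider than 2 kb, a number that again depends on how few peaks such a bin holds. Of all members 20.7% were wider than 2 kb, against 27.2% of other peaks.

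**Figure D3:**
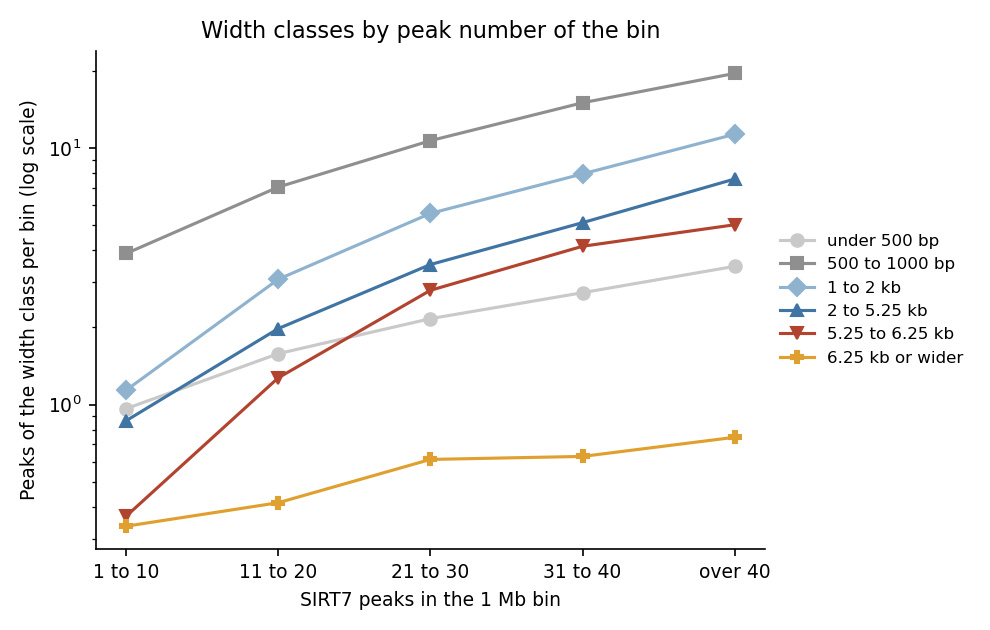
Peaks per 1 Mb bin (log scale) in 6 width classes, for bins grouped by their number of SIRT7 peaks. The class of 5.25 to 6.25 kb falls from 5.02 per bin in bins of over 40 peaks to 0.368 in sparse bins, and the class of 6.25 kb or wider from 0.746 to 0.336.

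**Figure D4:**
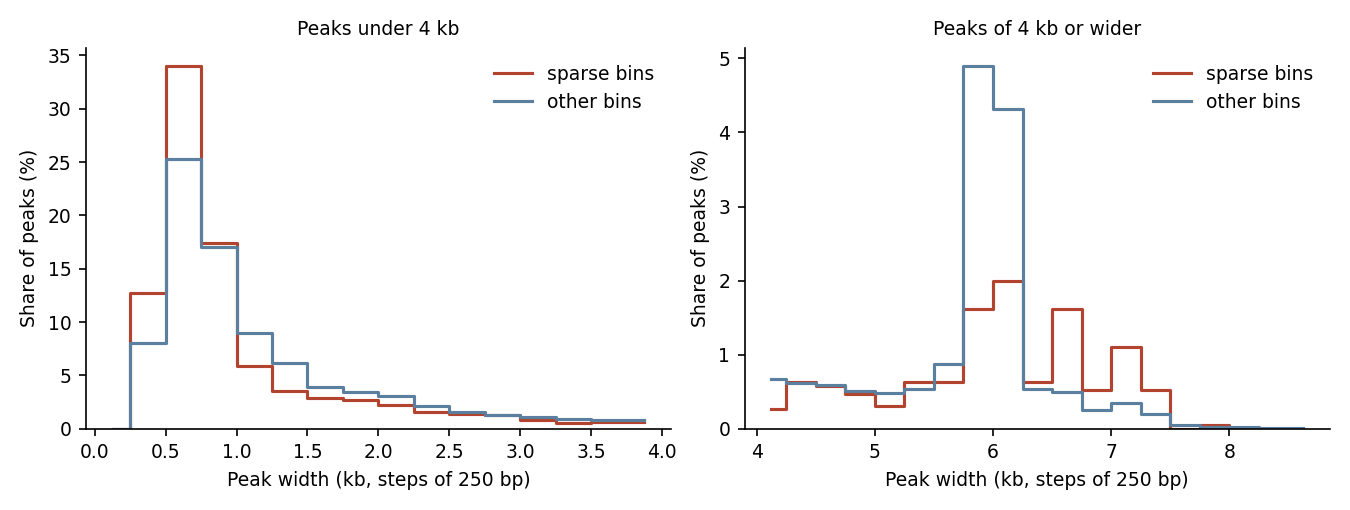
Share of peaks in percent by width in steps of 250 bp, for the 1911 peaks of sparse bins and the 61253 peaks of other bins, below 4 kb (left) and from 4 kb (right). The rise near 6 kb is lower in sparse bins, and the shares at 6.5 to 6.75 kb and 7 to 7.25 kb are higher.

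The peak with the largest width among members was 7881 bp wide, at chr6:53124327-53132207, and had an authors' score of 85.05. The next 4 were 7469 bp at chr14:3374414-3381882, 7459 bp at chr6:30878596-30886054, 7453 bp at chr5:111516471-111523923, and 7424 bp at chr12:86741844-86749267. The scores of these 5 ran from 71.7 to 145. The widest of the 61253 peaks of the other bins had 8737 bp, but a larger set reaches further by number alone.

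The score that the authors' peak caller gave to each peak, on which higher means a smaller p-value, was slightly lower for members as a whole. Its median was 131 (122 to 141), with quartiles of 77.1 and 263, against 147 (145 to 148), 83.1 and 272 in the other bins, and it was the lower on 14 of 18 chromosomes. It was not ordered by the number of peaks, with 150 for 11 to 20 peaks, 157 for 21 to 30, 149 for 31 to 40 and 138 for over 40. The median of the densest bins thus lay within the members' interval. Within width classes the order turned. In each of the 6 classes the member median was the higher, by little under 1 kb (77.2 against 74.2 below 500 bp, 106 against 101 from 500 to 1000 bp). It was higher by more from 1 to 2 kb, with 301 against 214, and from 2 to 5.25 kb, with 357 against 291. At 5.25 to 6.25 kb it was 285 against 278 and from 6.25 kb 159.3 against 158.8. For peaks of 1 to 2 kb the median decreased step by step with the number of peaks in the bin, from 301 in sparse bins through 270, 246 and 213 to 179 in bins of over 40. Against bins of 11 to 20 peaks alone, members were not higher throughout. Those bins had 106.1 against 105.9 from 500 to 1000 bp and 371 against 357 from 2 to 5.25 kb. They had 288 against 285 from 5.25 to 6.25 kb and 170 against 159 from 6.25 kb. Below 500 bp they had 77.0 against 77.2.

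Scores of 500 or more were given to 105 members, 5.49% (4.52 to 6.61), and to 4.79% (4.62 to 4.96) of other peaks. The 5 members with the highest scores were chr7:87852992-87855096 (1069), chr12:112302866-112303517 (917), chr8:125332551-125334019 (874), chr5:125866214-125868708 (872) and chr7:86973484-86975696 (868). The highest of the far more numerous peaks of the other bins scored 3225, which again depends on the size of the set. The first and the last of these 5 members lay in adjoining sparse bins of 7 and 8 peaks.

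Spacing in sparse bins was wide, which follows in part from the choice of bins. The median gap between neighbouring peaks of a bin, edge to edge, was 69.8 kb (65.2 to 75.8), with quartiles of 22.4 and 154 kb, against 16.4 kb (16.1 to 16.6), 5.62 and 37.1 kb in the other bins. Relative to the number of peaks the spacing differed little from that elsewhere. Each gap was multiplied by the number of peaks per megabase in its bin, so that 1 stands for 1 Mb divided by that number. The empty ends of a bin are not gaps, and the peaks spanned a median of 0.739 Mb in sparse and 0.936 Mb in other bins. The measure therefore runs lower by construction where peaks are few, and the comparison is not fully alike. The median was 0.571 (0.526 to 0.612) in sparse bins and 0.555 (0.549 to 0.563) in the others, and the quartiles were 0.182 and 1.22 against 0.194 and 1.21. Members were above the other peaks in this measure on 10 of 18 chromosomes.

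Close pairs persisted in sparse bins. Of their 1658 gaps, 255 or 15.4% (13.7 to 17.2) were under 10 kb, against 36.8% (36.4 to 37.2) elsewhere, and 157 of the 253 bins held such a gap. These gaps joined members into 220 groups, 188 of 2 peaks, 29 of 3 and 3 of 4. Counting neighbours across bin borders, 25.1% (23.1 to 27.1) of members had a peak within 10 kb, against 58.3% (57.9 to 58.7) of other peaks. Both differences follow in part from the choice of bins, since 10 kb is a fixed distance. Multiplied by the peaks per megabase as above, short gaps were about alike. Percentile 10 was 0.0359 in sparse and 0.0295 in other bins, and the lower quartile 0.182 and 0.194. Members with a peak within 10 kb were seldom 5.25 to 6.25 kb wide, at 2.09% (1.006 to 3.81), against 5.80% (4.64 to 7.13) of members with no peak within 10 kb. In the other bins the shares were 8.80% and 13.2%.

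**Figure D5:**
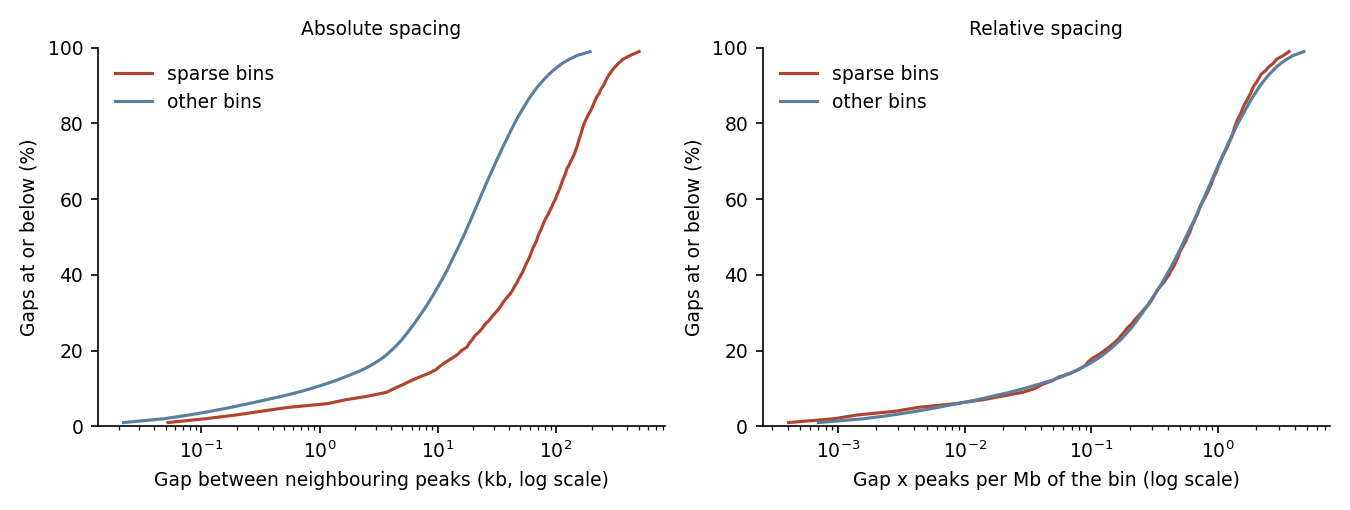
Cumulative share of gaps between neighbouring peaks of a bin, in kb (left) and multiplied by the peaks per Mb of the bin (right), from percentile 1 to 99 and on log scales. The medians of sparse and other bins are 69.8 and 16.4 kb on the left, and 0.571 and 0.555 on the right, where the curves nearly coincide.

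The sparse bins differed in how their peaks were laid out. The peaks of a sparse bin spanned a median of 0.739 Mb, with quartiles of 0.596 and 0.865, and the longest gap between peaks of a bin, which leaves out the empty edges of the bin, had a median of 266 kb. In 18 bins a gap between peaks exceeded 500 kb. In 39 bins the peaks spanned less than 0.5 Mb, and in 24 all midpoints lay on one side of the middle of the bin. These chromosomes had 7 peak-free stretches of 1 Mb or more, which touched 8 sparse bins. Unsequenced parts of the build were not separated out, and their part in these 8 bins was not tested.

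Away from chromosome ends 4 bins held 2 peaks, and chromosome 1 had the first by position of those with 3. At 135 to 136 Mb of chromosome 4, inside the longest stretch, 2 peaks stood 937 kb apart: one of 7411 bp at chr4:135011643-135019053 and one of 731 bp at chr4:135955622-135956352. At 119 to 120 Mb of chromosome 5 the only 2 peaks, of 554 and 877 bp, were 3.35 kb apart, and at 45 to 46 Mb of chromosome 9 a pair of 741 and 518 bp was 2.37 kb apart. At 137 to 138 Mb of chromosome 5 a peak of 6612 bp and one of 648 bp were 166 kb apart, beside a bin of 35 peaks. At 137 to 138 Mb of chromosome 1, 3 peaks of 1596, 756 and 859 bp were separated by 203 and 173 kb. None of these 11 peaks was 5.25 to 6.25 kb wide, and 2 were wider. Among all members the shares of these widths were 4.87% and 4.45%, so 11 peaks are too few to show a difference.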

How the data were processed

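The authors deposited a list of SIRT7 peaks in wild-type MEFs, with positions on mm9 and a score for each peak. The submitters' processing notes name read checking (FastQC 0.11.3), trimming (Trimmomatic 0.36), alignment (Bowtie) and peak calling (MACS 1.4.2), without settings. MACS scores of this version are the negative log10 of the p-value, multiplied by 10, and the lowest in the list was 50. The sources used here do not give the control, whether replicates were pooled, or the placement of reads with several matches, which bears on peaks in repeats. The deposited K562 list was used only to count its peaks.

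Bins, stretches, widths and gaps were computed from the positions with Python 3.11.15, numpy 2.4.6, pandas 2.3.3 and scipy 1.17.1, and drawn with matplotlib 3.10.9. Positions count from 1. Intervals are exact binomial for shares and order-statistic for medians. The code was tested on simulated data with planted sparse bins. The bins and the width class of 5.25 to 6.25 kb were chosen with earlier results of these data known. The text names the 5 longest stretches (ties by fewer peaks per bin, then position) and a sixth with as many peaks as the fifth, the 5 bins with fewest peaks away from chromosome ends (ties by position), the extreme chromosomes, and the 5 highest-scoring and 5 widest members. The class of 6.25 kb or wider was added after the data were seen. Values of the H3K18Ac and input samples were not used here.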

Additional observations from a re-analysis of the deposited data

How the results depend on the processing

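The alternatives were 10 listed at the outset and 2 added after the data were seen, which left bins without a peak out of the total or left out recurring pairs of peaks. The added ones changed no value of the members. Empty bins hold no peak, no member lay in such a pair, and the sparse bins stayed at 253 without these pairs. Under the other 10, members stayed narrower than other peaks, had the lower median score, the lower share of 5.25 to 6.25 kb peaks and the higher share of peaks of 6.25 kb or wider (3.72 to 4.84% against 1.95 to 2.79%). The relative spacing turned in 2 of these 10, to 0.543 against 0.564 with bins of 500 kb and 1 to 5 peaks, and to 0.583 against 0.591 with scores of at least 100 (limit 7 peaks). The cause was not tested.

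The sparse share of bins depended on the definition: 15.6% with bins of 500 kb, 7.21% with bins of 2 Mb and 1 to 20 peaks, 6.85% with 1 to 8 peaks, 16.2% with 1 to 12, 14.2% with scores of at least 100 and 12.7% with peaks closer than 1 kb merged. The share of sparse bins with a sparse neighbour was 64.8% with bins of 500 kb, 47.6% with bins of 2 Mb, 42.4% with 1 to 8 peaks and 66.8% with 1 to 12. The median gap was 65.0 kb with bins of 500 kb, 82.0 kb with 1 to 8 peaks, 60.1 kb with 1 to 12 and 106.5 kb with scores of at least 100. The member width was 754 bp with 1 to 8 peaks, 1103.5 bp (others 1372) with scores of at least 100 and 797 bp (others 1123) with merging. With scores of at least 100 the member score was 206 against 226, and the class of 5.25 to 6.25 kb made up 9.69% of members against 15.5%, or 5.99% against 12.7% with merging. A wider limit or fewer peaks move these values by construction.

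No paired analysis was possible because the group had 1 peak list. The unknown read depth limits what the peak numbers and widths show.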
